A study of Caenorhabditis elegans with 3 samples.

Results

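The genes described here are 10 genes that kill cells and clear their corpses in Caenorhabditis elegans, namely egl-1, ced-9, ced-4 and ced-3 of the killing pathway and ced-1, ced-6, ced-7, ced-2, ced-5 and ced-10 of corpse engulfment. They were found by matching the spots of the array to their gene identifiers, and 7 of the 10 had a spot, 1 each, with a value on every array, out of 15119 genes measured in all. For egl-1, ced-2 and ced-10 the probe table lists no spot, and they were not analysed here. The study set RNA from hermaphrodites at the end of the fourth larval stage (L4) and the start of adulthood, held in channel 2, against a wild-type mixed reference RNA, held in channel 1. There were 3 arrays, for preps 1, 2 and 3, and the same kind of reference stood on each of them. The labels give neither the genotype of the staged worms nor the make-up of the reference, and nothing says that the preps were separate cultures. A p-value therefore reflects only the spread among these 3 preps, which limma pools in part over all genes, and that spread may be technical.

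Every value below is a log2 ratio, and a positive one is taken as higher in the staged worms, which is the likely direction because the labels name the staged RNA against the reference and hold it in channel 2. The direction is not stated outright, and with the opposite one every sign would turn. The RNA came from whole animals, so a ratio cannot tell a change in the number of cells that express a gene from a change in RNA per cell. It also cannot be told from an effect of the channel, since the staged RNA was never in channel 1. The arrays had 19927, 19825 and 19873 spots with a value, and their log2 ratios correlated across genes with Pearson's r of 0.65 to 0.68, where genes are not independent replicates. The labelled stage was checked against markers. Of 11 sperm markers 10 were higher, of 6 adult cuticle markers 5 were higher, and of 11 germ line markers 6 were higher, with none of the 3 lists holding a lower call. Of all genes, limma called 11.3% higher and 9.37% lower at an adjusted p under 0.05. The 5 uncalled germ line markers were htp-3, rme-2, puf-5, oma-1 and oma-2. The uncalled cuticle marker rol-6 had -3.56, -0.68 and -0.11 in preps 1, 2 and 3. The germ line markers puf-5 and oma-2 were below 0 in preps 2 and 3, though all 11 germ line means were above 0. The lists were chosen with earlier results of these data known, which weakens this check.

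In this worm, programmed cell death runs through a short chain of proteins. The BH3-only protein EGL-1 binds CED-9, a relative of mammalian Bcl-2, and frees the adaptor CED-4, which activates the caspase CED-3. Dying cells are swallowed by their neighbours through a pair of partly redundant routes, 1 with the receptor CED-1, its adaptor CED-6 and the ABC transporter CED-7, and 1 with CED-2, CED-5, CED-12 and the Rac GTPase CED-10. Most somatic deaths happen in the embryo, while in the adult hermaphrodite many germ cells die in the gonad during oogenesis and are engulfed by the sheath cells around them.

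None of the 7 measured genes passed the test for a difference from the reference. Limma's test, fitted over all genes with Benjamini-Hochberg adjustment, called 0 of the 7 in either direction at an adjusted p under 0.05, against 20.7% of all 15119 genes (11.3% higher and 9.37% lower). At an unadjusted limma p under 0.05 there was 1 of the 7, ced-4, against 33.7% of all genes. The means of the 7 genes ran between -0.40 and 0.60, with 5 above 0 and 2 below. Their median was 0.36, beside -0.04 for all genes, and their median size without sign was 0.40, beside 0.38 for all genes. The absence of calls is not evidence that the levels were equal. Limma's standard error of a gene draws on its own spread and on the variances of all genes. At that standard error, the test would have called a mean of at least 0.74 for ced-9, the smallest of the 7. For ced-6, the largest, it was at least 0.99.

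**Figure D1:**
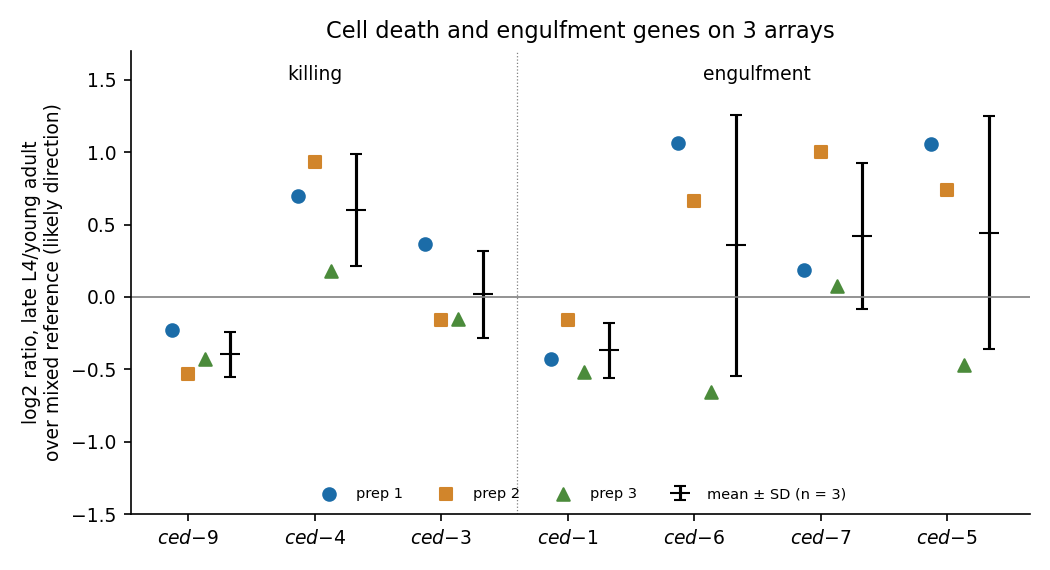
Log2 ratio of late L4/young adult RNA over the mixed reference (y axis, likely direction) for the 7 measured genes (x axis) on each of the 3 arrays, with the mean ± SD (n = 3) in black. As deposited, all 3 arrays lie below 0 for ced-9 and ced-1 and above 0 for ced-4 and ced-7, while prep 3 lies apart from preps 1 and 2 for ced-6 and ced-5.

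In the killing pathway, the inhibitor, the adaptor and the caspase stood in 3 different places. The inhibitor of death ced-9 had log2 ratios of -0.23, -0.53 and -0.43 in preps 1, 2 and 3. All of the arrays were thus below the reference by a small amount, and their SD of 0.15 was lower than that of all but 10.8% of genes. The mean was -0.40 ± 0.15 (SD, n = 3), a level 1.32-fold lower in the staged worms (95% interval -0.93 to 0.13; limma adjusted p = 0.283).

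The caspase activator ced-4 had 0.70, 0.93 and 0.18. All arrays were above the reference, and prep 3 was nearest to it. Its mean of 0.60 ± 0.39 (SD, n = 3) was the highest of the 7 genes, 1.52-fold, and lay above 83.0% of all genes. Its unadjusted limma p was 0.0380, with a 95% interval of 0.04 to 1.16, and it did not pass after adjustment (adjusted p = 0.123). Over 11 alternative settings the adjusted p of ced-4 ran between 0.0997 and 0.461.

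The caspase gene ced-3 had 0.37, -0.16 and -0.15. Prep 1 was above the reference and the others slightly below it, and the mean of 0.02 ± 0.30 (SD, n = 3) was among the smallest in size of all genes, with only 2.93% of genes nearer to 0. The 95% interval of -0.53 to 0.57 leaves room for a difference of up to 1.48-fold either way (limma adjusted p = 0.972). The sign of this mean turned when the arrays were put on an equal scale (-0.00028), when arrays were weighted (-0.04) and without prep 1 (-0.16), none of which passed.

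The genes ced-4 and ced-9 were compared as the measured members with the highest and the lowest mean, so the direction of their mean difference was fixed by that choice. On every array ced-4 stood above ced-9, by 0.93, 1.46 and 0.60, and the mean difference was 1.00 ± 0.43 (SD, n = 3). This compares their ratios to the reference, not their levels. The smallest p that an exact two-sided sign-flip test can give with 3 arrays is 0.25, which this difference reached, and 12 pairs of members were compared in all, none of which could pass a threshold of 0.05. The caspase lay between them. As deposited, ced-4 was above ced-3 on each array, by 0.34, 1.09 and 0.33. On each array ced-3 was above ced-9, by 0.59, 0.38 and 0.27. Both differences had an exact sign-flip p of 0.25.

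In the route that runs through the receptor CED-1, the receptor gene was near or below the reference and its partners were not alike. The gene ced-1, whose product recognises corpses on the engulfing cell, had -0.43, -0.16 and -0.52. As deposited, all arrays were below the reference, with a mean of -0.37 ± 0.19 (SD, n = 3; 95% interval -0.90 to 0.16; limma adjusted p = 0.323). The mean of ced-1 was 0.03 above that of ced-9, less than the SD of 0.31 of this difference over the arrays.

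The ABC transporter gene ced-7, which acts in both the dying and the engulfing cell, had 0.18, 1.00 and 0.08. All arrays were above the reference, but only prep 2 was clearly so. The mean was 0.42 ± 0.51 (SD, n = 3; 95% interval -0.17 to 1.01; limma adjusted p = 0.307), and without prep 2 it was 0.13. Its ratio exceeded that of ced-1 on every array, by 0.61, 1.16 and 0.60, on average 0.79 ± 0.32 (exact p = 0.25, the smallest possible).

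The adaptor gene ced-6, which acts downstream of the receptor, had 1.07, 0.66 and -0.66. Preps 1 and 2 were above the reference and prep 3 was below it by as much as prep 2 was above. The mean was 0.36 ± 0.90 (SD, n = 3; 95% interval -0.35 to 1.07; limma adjusted p = 0.488). The SD was higher than in 93.8% of genes.

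In the route through the Rac GTPase, ced-5 was the only member measured. Its product is a DOCK180-type protein that, with CED-12, activates CED-10. The gene had 1.06, 0.74 and -0.47, again above the reference in preps 1 and 2 and below it in prep 3. The mean was 0.44 ± 0.80 (SD, n = 3; 95% interval -0.23 to 1.12; limma adjusted p = 0.352), with an SD higher than in 90.8% of genes.

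The values of ced-5 and ced-6 followed each other from array to array, although they belong to separate routes. The difference, ced-5 minus ced-6, was -0.01, 0.08 and 0.19, with a mean of 0.09 ± 0.10 (SD, n = 3). With 3 arrays this is a description and not a correlation. Without prep 3, ced-5 stood at 0.90 (limma adjusted p = 0.0634) and ced-6 at 0.86 (adjusted p = 0.0769), so neither passed. Without prep 1, the mean was 0.14 for ced-5 and 0.001 for ced-6.

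Some other values moved between the arrays in the same direction as ced-5 and ced-6. The median of the germ line markers, of which 11 of 12 were measured, took the values 1.87, 1.09 and 0.67 on the arrays of preps 1, 2 and 3, with single markers between 0.80 and 2.83 in prep 1 and between -0.56 and 2.79 in prep 3. These markers did not move alike. The values were 2.44, 0.62 and -0.10 for rme-2, and 2.64, 2.66 and 2.02 for glh-1. For htp-3 they were 0.80, 0.14 and 2.79. A fall from prep 1 to prep 3 was not particular to germ line markers. The median of the 98 measured genes of the wider lists given below was 0.27, -0.04 and -0.10. Over all genes it was 0.04, -0.09 and -0.06. The part of the germ line in the values of ced-5 and ced-6 was not tested. The markers of the gonadal sheath, of which 4 of 5 were measured, went different ways, with medians of -0.11, -0.17 and 0.06. The innexin gene inx-8 had 0.58, 1.96 and -0.66, lowest in prep 3 as in ced-5 and ced-6, while lim-7 and ceh-18 were lowest in prep 1 and inx-9 in prep 2. Of these markers 0 of 4 passed limma's test at an adjusted p under 0.05 or at an unadjusted p under 0.05. Of all genes, 20.7% and 33.7% did.

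The medians over stretches of spots, taken in the order of their numbering, also moved with these values. Whether a stretch of this numbering is a place on the array was not tested. Spots are numbered in order, and when the spots were divided into 32 runs of equal length, the median over the run that holds ced-6 was 0.57, -0.04 and -0.20 in preps 1, 2 and 3, and over the run that holds ced-5 it was 0.34, -0.06 and -0.34. With these medians subtracted, ced-6 had 0.50, 0.70 and -0.46, and ced-5 had 0.72, 0.80 and -0.13. Prep 3 thus remained the lowest array of both genes, and the gap between preps 1 and 3 was smaller than before. The same step left ced-4 at 0.77, 1.10 and 0.07, and it turned the sign of prep 1 of ced-7 (-0.26), prep 2 of ced-1 (0.11) and prep 3 of ced-3 (0.20). With it, ced-9 was below 0 and ced-4 above 0 on every array, and ced-1 and ced-7 no longer had the same sign on all of them. In prep 3, ced-3 (0.20) then lay above ced-4 (0.07), so ced-4 was no longer above ced-3 on every array.

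**Figure D2:**
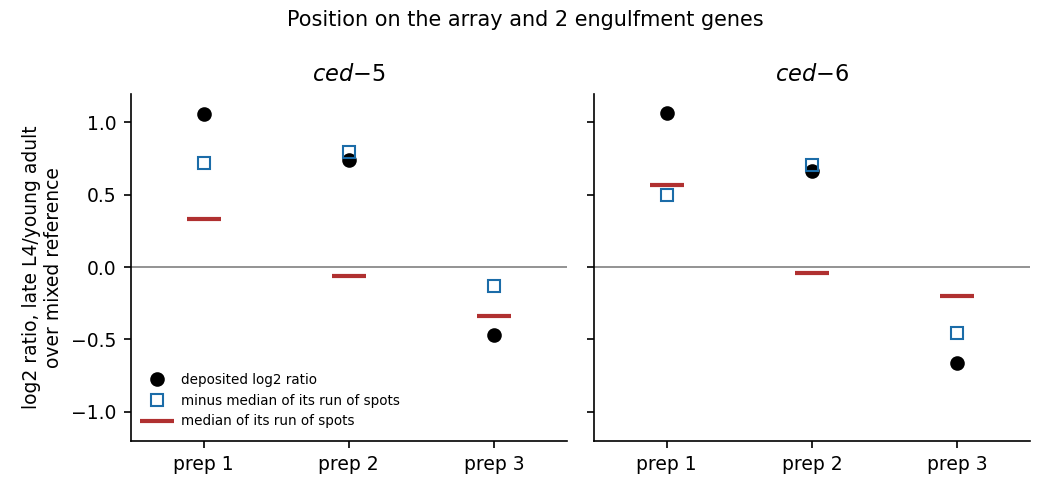
Log2 ratios of ced-5 and ced-6 (y axis) in the 3 preps (x axis) as deposited (filled points), the median of the run of spots that holds each gene (bars) and the values with that median subtracted (open squares). Prep 3 is below 0 for both genes with and without the subtraction.

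Ordered by their mean, the genes ran ced-4, ced-5, ced-7, ced-6, ced-3, ced-1 and ced-9. Each difference between neighbours in this order was smaller than its own SD over the arrays, from 0.02 ± 0.75 for ced-5 minus ced-7 to 0.39 ± 0.40 for ced-3 minus ced-1. The order of neighbours within the list is therefore not resolved by these arrays. The spread between arrays also differed among the genes. As deposited, ced-9 and ced-1 had SDs of 0.15 and 0.19 and ced-5 and ced-6 had SDs of 0.80 and 0.90, beside a median of 0.39 over all genes. With the run medians subtracted, the SDs lay closer together, at 0.12 for ced-9, 0.23 for ced-3, 0.35 for ced-1, 0.52 for ced-5, 0.53 for ced-4, 0.62 for ced-6 and 0.63 for ced-7.

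**Figure D3:**
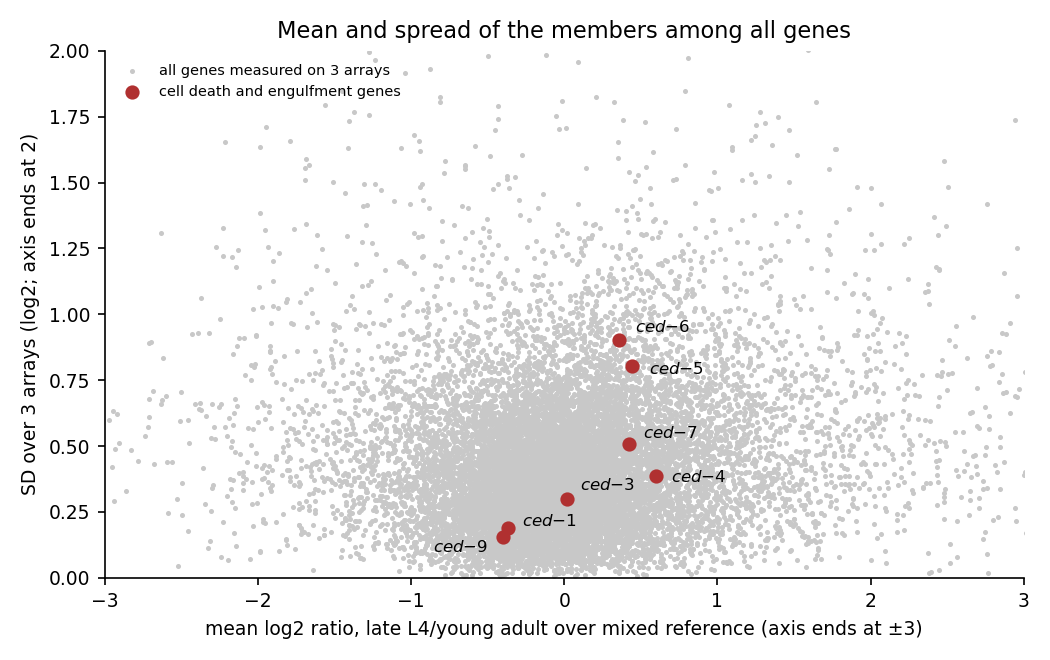
Mean log2 ratio (x axis) and SD over 3 arrays (y axis) of all 15119 genes in grey and of the 7 genes in red. The 7 genes lie within the main body of genes by their mean, and ced-5 and ced-6 lie near its upper edge by their SD.

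**Figure D4:**
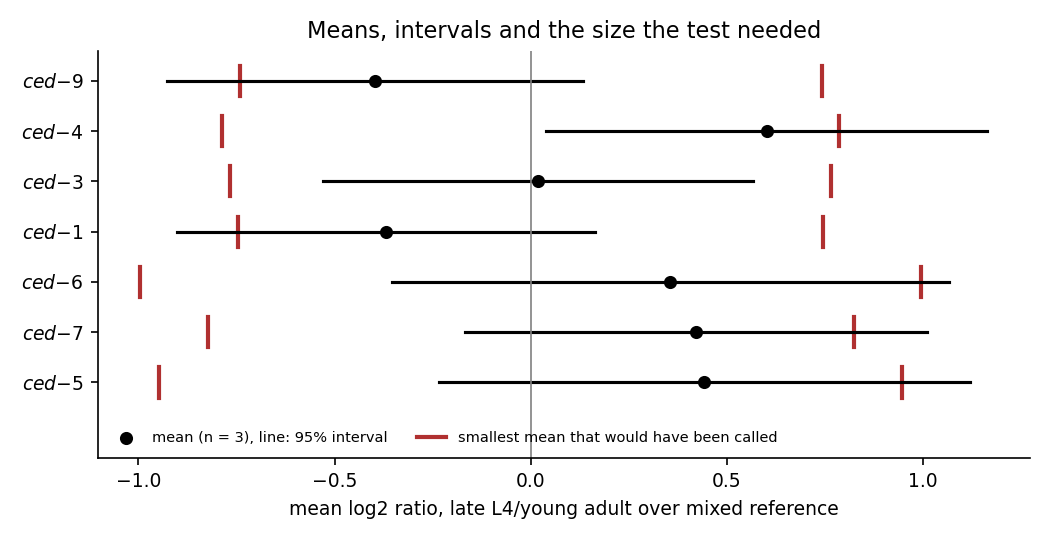
Mean log2 ratio (points, n = 3) of the 7 genes with 95% intervals (black lines) and the smallest mean, in either direction, that would have been called at the standard error limma gave each gene (red marks). All 7 points lie inside their red marks, and the interval of ced-4 alone leaves out 0, from 0.04 to 1.16.

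Genes next to the members on the chromosome (a gap under 1000 bases in the RefSeq gene table, which gives no strand) were compared with them. The gene mev-1, which encodes a subunit of mitochondrial complex II and is known to share an operon with ced-9, had 0.86, 0.15 and 0.04. Its mean of 0.35 ± 0.44 (SD, n = 3) did not pass (limma adjusted p = 0.393). On each array mev-1 lay above ced-9, by 1.09, 0.68 and 0.47, a mean of 0.74 ± 0.31. The gene on the other side of ced-9, ttr-15 of the transthyretin-like family, was lower, at -0.54, -1.46 and -1.04 with a mean of -1.01 ± 0.46 (limma adjusted p = 0.0192).

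Beside ced-4, C35D10.8 stood at 0.62 ± 0.27 and F26A1.1 at 0.23 ± 0.29, and neither passed. Beside ced-3, C48D1.1 was lower at -1.62 ± 0.54 (limma adjusted p = 0.00170), with -2.24, -1.28 and -1.33, while ced-3 was near 0. Beside ced-5, F01D4.5 stood at -0.38 ± 0.64 and tax-6, a calcineurin subunit gene whose annotated span overlaps that of ced-5, at 0.01 ± 0.73, and neither passed. The spans of ced-6 and wdr-37, and of ced-7 and C48B4.13, also overlap, so signal at these spots could be shared, and neither wdr-37 nor C48B4.13 had a value. Beside the unmeasured egl-1, F23B12.1 was higher at 1.58 ± 0.64 (limma adjusted p = 0.00249), and beside the unmeasured ced-10, tsg-101, an ESCRT gene, was at 0.20 ± 0.09 and did not pass.

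Around the members, 7 lists of genes that act before, beside or after them held 98 measured genes, of which 18 passed, 8 higher and 10 lower. That is 18.4% of them, near the 20.7% of all genes. Of the 18, 7 were called whichever prep was left out, and 11 lost the call without at least 1 prep.

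**Figure D5:**
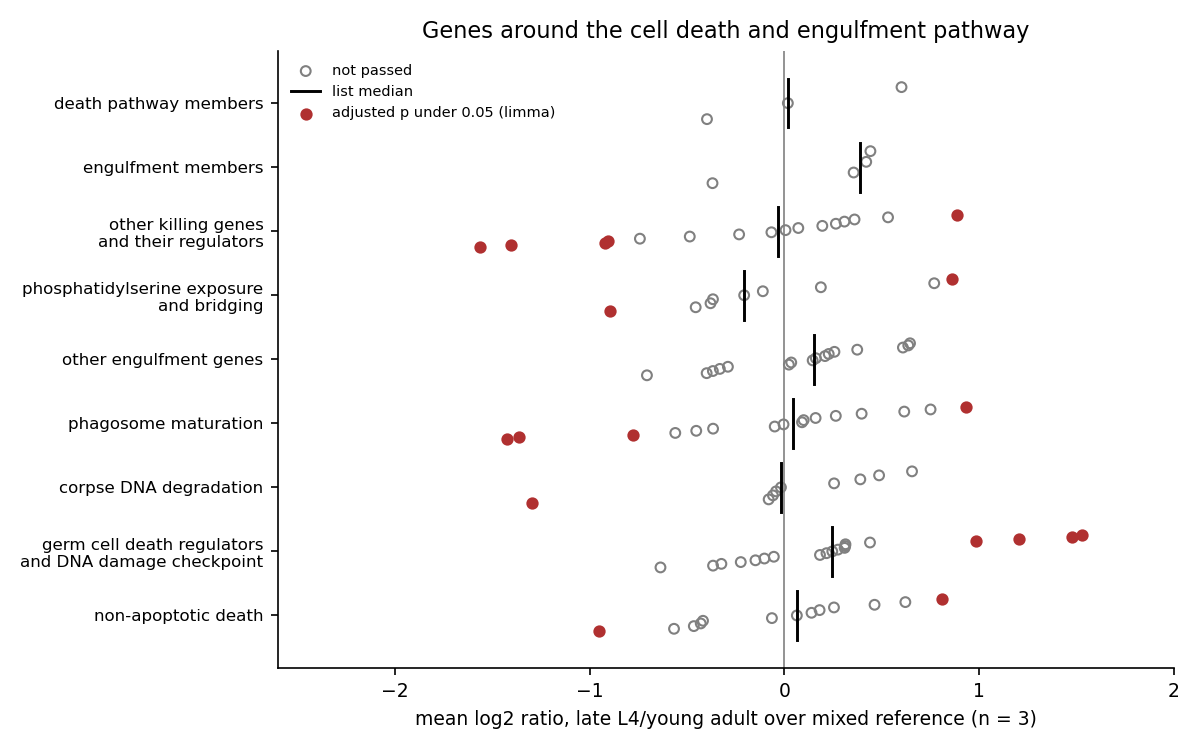
Mean log2 ratio (x axis, n = 3) of the measured genes of each list (rows), with filled red points for those past limma's adjusted p of 0.05, open points for the others and a black bar at the list median. No gene of the top 2 rows, the members, is filled. In the list of killing genes 4 filled points lie below 0 and 1 above, and in that of germ cell death regulators 4 lie above. Of all genes, 9.37% were called lower and 11.3% higher.

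Of 16 measured genes that kill cells or control when they are killed, limma called 4 lower and 1 higher and left 11 without a call, and the list's median was -0.03. Calls made up 31.25% of the list, beside 20.7% of all genes (11.3% higher and 9.37% lower), and the share was not tested. The 4 lower genes of the list include transcription factors known to act on egl-1. The E-protein gene hlh-2, which with hlh-3 is known to activate egl-1 in serotonergic lineages, had -1.15, -1.23 and -2.31 (mean -1.56 ± 0.65, 2.96-fold lower; limma adjusted p = 0.00274), while hlh-3 itself stood at 0.01 ± 0.44. The Pbx-type homeobox gene ceh-20, which acts with the Hox gene mab-5 on egl-1, had -1.34, -1.57 and -1.30 (mean -1.40 ± 0.15, 2.65-fold lower; limma adjusted p = 0.00191), while mab-5 at -0.23 ± 0.51 did not pass.

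Both hlh-2 and ceh-20 were called whichever prep was left out. The bZIP gene ces-2, which represses the Snail-type gene ces-1, was lower at -0.90 ± 0.15 (limma adjusted p = 0.0214), and ces-1 stood at -0.49 ± 0.45 and did not pass. The gene eor-2, a partner of the zinc finger gene eor-1 in neuronal deaths, was lower at -0.92 ± 0.18 (adjusted p = 0.0202), and eor-1 stood at 0.26 ± 0.57. The chaperone gene dnj-11, which acts in the division that makes a dying neuronal sister, was higher at 0.89 ± 0.18 (adjusted p = 0.0243).

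The calls of ces-2, eor-2 and dnj-11 were less stable. The call of ces-2 was lost without prep 1 (-0.91), prep 2 (-0.98) or prep 3 (-0.83), that of eor-2 without prep 2 (-0.92) or prep 3 (-0.83), and that of dnj-11 without prep 1 (0.85) or prep 3 (0.82). The CED-3-related caspase genes csp-1 at 0.53 ± 0.44 and csp-3 at 0.20 ± 0.25 did not pass, and csp-2 and ced-13 were not measured. The zinc finger gene sptf-3, which activates egl-1, stood at -0.74 ± 0.28 and did not pass (limma adjusted p = 0.0550). It passed with arrays on an equal scale (-0.76; adjusted p = 0.0488) and with array weights (-0.79; adjusted p = 0.0359).

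Of 9 genes that expose phosphatidylserine on dying cells or bridge it to receptors, 1 was called lower and 1 higher. That is 22.2% of the list, beside 20.7% of all genes, while 7 failed the test, and the list's median was -0.21. The gene ced-8, whose product is cut by CED-3 and then exposes phosphatidylserine, was lower at -1.11, -0.81 and -0.77 (mean -0.90 ± 0.19; limma adjusted p = 0.0230). The phosphatidylserine receptor gene psr-1, which acts ahead of CED-2 and CED-5, was higher at 0.72, 0.82 and 1.05 (mean 0.86 ± 0.17; limma adjusted p = 0.0268). All arrays of ced-8 lay below 0 and all of psr-1 above it, which largely follows from their opposite calls. Over all genes, 53.0% had the same sign on every array. The call of ced-8 was lost without prep 1 (-0.79) or prep 2 (-0.94), and that of psr-1 without prep 1 (0.94), prep 2 (0.88) or prep 3 (0.77). The bridging gene ttr-52, whose product links phosphatidylserine to CED-1, had -0.93, 0.06 and -0.23 and did not pass. The gene wah-1, a relative of mammalian AIF that acts in phosphatidylserine exposure, stood at 0.77 ± 0.37 and did not pass (limma adjusted p = 0.0532). It passed with array medians subtracted (0.81; adjusted p = 0.0474) and with arrays on an equal scale (0.75; adjusted p = 0.0492).

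Of 16 other engulfment genes, limma called 0, beside 20.7% of all genes, and the list's median was 0.15. At an unadjusted limma p under 0.05 there were 3, beside 33.7% of all genes. The lowest was the Rac-family gene mig-2 at -0.71 ± 0.19 (limma adjusted p = 0.0614) and the highest wve-1, of the WAVE actin regulator, at 0.65 ± 0.50 (adjusted p = 0.113). The partner of ced-5, ced-12, had -0.42, -0.58 and 0.13 with a mean of -0.29 ± 0.37 (limma adjusted p = 0.472). The ratio of ced-5 was thus above that of ced-12 in preps 1 and 2 and below it in prep 3. The actin regulator gene abi-1 had 1.60, 0.61 and -0.39, with prep 3 lowest as in ced-5 and ced-6, and passed only without prep 3 (1.11; adjusted p = 0.0168). With the run medians subtracted, wsp-1 of the actin regulator WASP passed at 0.68 (adjusted p = 0.0435), and this count was then 1.

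Of 16 genes of phagosome maturation, 3 were called lower and 1 higher, while 12 failed the test, with a median of 0.04. Calls made up 25% of the list, beside 20.7% of all genes. The GTPase gene rab-14, which helps to bring lysosomes to phagosomes, had -1.34, -1.19 and -1.75 (mean -1.43 ± 0.29, 2.69-fold lower; limma adjusted p = 0.00205). The Atg8-type autophagy gene lgg-1 had -1.40, -1.82 and -0.87 (mean -1.36 ± 0.48; limma adjusted p = 0.00403). Both were called whichever prep was left out. The lipid kinase gene vps-34 was lower at -0.78 ± 0.18 (adjusted p = 0.0423), but not without prep 1 (-0.75), prep 2 (-0.70) or prep 3 (-0.88). The gene tbc-2, which turns off RAB-5, was higher at 0.93 ± 0.71 (adjusted p = 0.0442), but not without prep 1 (0.62) or prep 2 (0.85). The lysosomal channel gene cup-5 had 1.26, 0.74 and 0.26 and passed only without prep 3 (1.00; adjusted p = 0.0350).

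Of 9 genes that degrade the DNA of corpses, 1 was lower and 8 did not pass, with a median of -0.02. Calls made up 11.1% of the list, beside 20.7% of all genes (9.37% lower). The lower one was nuc-1, which encodes the lysosomal DNase II that clears DNA within the engulfing cell. It had -0.66, -1.56 and -1.68 in preps 1, 2 and 3 (mean -1.30 ± 0.56, 2.46-fold lower; limma adjusted p = 0.00645) and was called whichever prep was left out. The highest was dcr-1, the Dicer gene, at 0.66 ± 0.29, which did not pass (adjusted p = 0.0856).

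Of 19 genes that control the death of germ cells or the DNA damage checkpoint ahead of it, 4 were called higher and 0 lower, while 15 failed the test, with a median of 0.25. Calls made up 21.1% of the list, beside 20.7% of all genes (11.3% higher and 9.37% lower), and neither the share nor its direction was tested. The translational repressor gene gld-1, which holds back the p53-type gene cep-1 in the germ line, had 1.92, 1.33 and 1.34 (mean 1.53 ± 0.34, 2.89-fold higher; limma adjusted p = 0.00147), while cep-1 stood at 0.23, 0.35 and 0.36 and did not pass (adjusted p = 0.402). The RNA helicase gene cgh-1, whose loss raises germ cell death, had 2.27, 1.11 and 1.06 (mean 1.48 ± 0.68; adjusted p = 0.00421).

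The other 2 higher genes of this list also act on RNA in the germ line. The gene car-1 was at 0.99 ± 0.71 (limma adjusted p = 0.0350) and gla-3, a zinc finger gene whose loss raises germ cell death, at 1.21 ± 0.66 (adjusted p = 0.0121). The calls of gld-1 and cgh-1 held whichever prep was left out. The call of car-1 was lost without prep 1 (0.60) or prep 2 (1.05), and that of gla-3 without prep 1 (1.21) or prep 2 (0.88). The germ line markers stood at a median of 1.24 over the arrays, with 6 of 11 higher, and the share of these 4 calls that goes with more germ line RNA was not tested. The lowest gene of the list was pax-2 at -0.64 ± 0.30, which did not pass. The DNA damage genes hus-1 at -0.37 ± 0.83, mrt-2 at -0.05 ± 0.22, clk-2 at 0.28 ± 0.42 and atl-1 at 0.25 ± 0.17 did not pass either.

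Of 13 genes of non-apoptotic death, 1 was called lower and 1 higher, while 11 failed the test, with a median of 0.06. Calls made up 15.4% of the list, beside 20.7% of all genes. The adaptor gene tir-1, which acts in the death of the linker cell in males, was lower at -0.95 ± 0.27 (limma adjusted p = 0.0192), though not without prep 1 (-0.80). The calreticulin gene crt-1, needed for some necrotic deaths, was higher at 0.81 ± 0.25 (adjusted p = 0.0381), but not without prep 1 (0.90), prep 2 (0.66) or prep 3 (0.86). The gene lin-24, which acts in a cytotoxic death of vulval precursors, had 0.53, 1.48 and -0.14 and passed only without prep 3 (1.00; adjusted p = 0.0346).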

How the data were processed

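Per the labels, each array set staged RNA against the mixed reference, and the authors deposited a log2 ratio for each of 20000 spots on every array. On all 3 arrays, 2 raised to the deposited log2 value fell on whole multiples of 0.001 (ratios under 0.6, tolerance of 0.01 of a step, 100% of values). How the arrays were labelled, scanned, background-corrected, filtered and normalized is not given in the sources used here. Intensities were not used here, so no dim or saturated spot was left out, and the number of arrays limits precision. The platform's annotation gave the gene of each spot, which was updated through a RefSeq gene table (assembly WBcel235) by gene identifier (15569 spots), accession (7) or symbol (79). Spots with several genes (198) or no listed gene (4147) were left out, and spots of the same gene were averaged.

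Limma 3.58.1 in R 4.3.3 (lmFit, then eBayes) tested whether the mean log2 ratio of a gene differed from 0, two-sided, over the 15119 genes that had values on 3 arrays, with Benjamini-Hochberg adjustment at 0.05. The reference was hybridised on no array of its own, so its variation between arrays is part of the spread of the ratios and cannot be separated from it. The fit was tested on simulated data. The members and lists were chosen with earlier results of these data known. All members were named, and of each wider list every called gene and the highest and lowest. Other listed genes named with them (partners, paralogs, checkpoint genes and genes called under an alternative alone) were added after their values were seen. Neighbours were meant to be on the same strand, but the table gives none, so both sides were taken. Genes of like pattern were to be named for called members, and there were none. The alternatives were other centring (per array, or per run of consecutive spots), scaling or weighting of the arrays, robust variances, genes with 2 of 3 values kept, the first spot of a gene in place of the average, a threshold of 0.01 and leaving out each prep.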

Additional observations from a re-analysis of the deposited data

How the results depend on the processing

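The count of 0 called among the 7 cell death and engulfment genes held under all 11 alternatives, which are not independent checks. The threshold of 0.01 could not raise it, and leaving out a prep leaves fewer arrays for a call. Each of the 7 has 1 spot and 3 values. That threshold, robust variances, genes with 2 of 3 values kept and the first spot of a gene thus left every mean unchanged. The means ran between -0.48 and -0.32 for ced-9, 0.44 and 0.81 for ced-4, -0.47 and -0.29 for ced-1, 0.001 and 0.86 for ced-6, 0.13 and 0.59 for ced-7 and 0.14 and 0.90 for ced-5, and kept their sign. The mean of ced-3 ran between -0.16 and 0.13 and was negative with arrays on an equal scale (-0.00028), with array weights (-0.037) and without prep 1 (-0.16), while leaving out prep 2 gave 0.11. Over all genes, 3126 were called, 1709 higher and 1417 lower. Leaving out a prep gave between 1759 and 2904 (1095 to 1598 higher, 664 to 1306 lower), and the threshold of 0.01 gave 1605 (952 higher and 653 lower). The stricter threshold can only give fewer calls. Fewer arrays leave the test less power, but single genes can still gain a call, as abi-1, cup-5 and lin-24 did without prep 3.

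Leaving out a prep gave 2 to 3 calls among the killing genes and their regulators (5 with all preps), 0 to 1 for phosphatidylserine exposure (2), 0 to 1 for other engulfment genes (0), 2 to 4 for phagosome maturation (4), 2 to 4 for germ cell death regulators (4) and 0 to 2 for non-apoptotic death (2). At the threshold of 0.01 these counts were 2, 0, 0, 2, 2 and 0. With the median of each run of spots subtracted, phosphatidylserine exposure and other engulfment genes each had 1 call, and the cause was not tested. The other alternatives stayed within 1.5 times of the counts with all preps. No paired analysis was possible because there is 1 group. In the fit with none of these alternatives, a mean under 0.74 in size could not be called for any of the 7 genes.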
